A study of Mus musculus with 4 samples.

Results

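Homeobox genes encode transcription factors that bind DNA through a homeodomain, a fold of helices of which the third lies in the major groove. Retinal cells choose and keep their identities with combinations of these factors: Pax6, Six3 and Six6 belong to the field of cells that forms the eye, Crx and Otx2 to photoreceptors, Otx2 and Vsx1 to bipolar cells, and Pou4f2 to ganglion cells. Amacrine cells, which are inhibitory neurons of the inner layers, keep Pax6 and add factors that differ between their many types. The genes described here are 55 homeobox genes of retinal and neuronal identity, found by symbol among the 55471 rows of the count table. All 55 were found, each in 1 row, and 48 passed the filter on low counts and were tested. The other 7 (Dlx1, Dlx2, Irx2, Lhx5, Lhx6, Lmx1b and Otx1) are given below by their counts.

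The cells came from retinas of C57BL6 mice aged postnatal day 6 to 7. All groups carried Gbx2-CreERT2-IRES-EGFP, in which the Gbx2 locus drives a tamoxifen-inducible Cre recombinase and EGFP, and Ai9, a tdTomato reporter that Cre switches on for good. Red cells were sorted by EGFP into a GFP-negative fraction (replicates 2 and 6) and a GFP-positive fraction (replicates 2 and 3), with 750 to 2500 cells behind an RNA sample, so both fractions have a history of Gbx2 activity and differ in present EGFP. The sources used here do not date the induction of Cre or give the sex of a sample. The comparison asks which homeobox factors distinguish these groups of Gbx2-lineage amacrine cells.

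Total gene counts were 41040667 to 44689917 per library, and 3 counts, the floor used for a gene at 0, correspond to 0.0631 to 0.0838 CPM (counts scaled to 1e6 per TMM-adjusted library, the unit of level used throughout). Per the labels, the replicates came from 3 litters and each animal gave a sample of either kind, so the libraries within a fraction are taken as different animals and those numbered 2 may share an animal. RNA of rod photoreceptors was present in every library: the summed level of 16 rod markers was 9831 CPM (replicate 2) and 2422 CPM (replicate 6) in the GFP-negative fraction, and 11225 CPM (replicate 2) and 19294 CPM (replicate 3) in the GFP-positive one. All 16 had a positive log2 fold change, and edgeR called 0 of them (5 at an unadjusted p under 0.05). The labelled amacrine identity was checked with 12 amacrine markers, which summed to 6625 and 12502 CPM in the GFP-negative and 2545 and 1318 CPM in the GFP-positive libraries. Of the 12, 11 had a negative log2 fold change, 10 had separate, lower ranges, and edgeR called 5 lower (Gad1, Gad2, Tfap2c, C1ql1 and C1ql2), where 0.87% of all genes were called lower and 21.3% had separate, lower ranges. Slc6a9 was the 1 with a positive log2 fold change (0.90, edgeR adjusted p = 0.334). In such bulk libraries fewer cells of a type, less RNA per cell and a different mix of amacrine types cannot be told apart.

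The part of a homeodomain that reads DNA most closely is its recognition helix, and the residue at homeodomain position 50 helps to set which bases beside a TAAT core are preferred. The coding bases of positions 42 to 56 are shown for Gbx2 and Zfhx3, which edgeR called, and for selected genes that it did not call. They are from GENCODE M21 transcripts (GRCm38), 5′ to 3′, with the codon of position 50 in capitals. Positions were found by the pattern tryptophan, phenylalanine, any residue, asparagine, with the tryptophan as position 48.
Gbx2: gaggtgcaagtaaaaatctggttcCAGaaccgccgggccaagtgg
Pax6: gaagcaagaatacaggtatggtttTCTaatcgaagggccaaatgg
Six3: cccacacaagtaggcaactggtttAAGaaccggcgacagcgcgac
Six6: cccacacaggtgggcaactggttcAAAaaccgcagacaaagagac
Otx2: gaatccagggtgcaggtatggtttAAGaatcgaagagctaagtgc
Crx: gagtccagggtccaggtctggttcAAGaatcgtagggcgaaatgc
Meis2: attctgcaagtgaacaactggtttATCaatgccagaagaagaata
Zfhx3 first match: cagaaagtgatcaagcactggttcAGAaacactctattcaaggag
Zfhx3 last match: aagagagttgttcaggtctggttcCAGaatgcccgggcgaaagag

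The Gbx2 bases lie in 1 exon at chr1:89928761-89928805 (minus strand), those of Six3 at chr17:85621981-85622025 (plus strand) and those of Six6 at chr12:72940560-72940604 (plus strand). The Zfhx3 matches, of which the gene has 4, lie at chr8:108948896-108948940 and chr8:108951302-108951346 (plus strand). In Pax6 (chr2:105692262-105692499, plus strand), Otx2 (chr14:48659297-48661313, minus strand), Crx (chr7:15868398-15869357, minus strand) and Meis2 (chr2:115868779-115921691, minus strand) the bases are joined across an intron, and these coordinates span it. Six3 and Six6 shared 36 of the 45 bases, Otx2 and Crx 37, and Gbx2 and Six3 22. The pattern was found in 45 of the 55 genes. Counting the first match of each, position 50 was a lysine codon in 5 (Crx, Otx1, Otx2, Six3 and Six6), a glutamine codon in 17, among them Gbx2 and the LIM genes, a cysteine codon in all 7 POU genes, an isoleucine codon in the 3 Meis genes and a serine codon in Pax6 and Prox1. Six3 and Six6 are thus alike in this stretch, while their levels, given below, lay in opposite directions between the fractions.

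Gbx2, the gene whose allele was used for the sort, is given as a description. Its level was 28.7 CPM (replicate 2) and 55.5 CPM (replicate 6) without GFP, and 602 CPM (replicate 2) and 496 CPM (replicate 3) with it. All GFP-positive libraries were above both GFP-negative ones, with a log2 fold change of 3.71 ± 0.44 (standard error, 2 libraries per fraction here and throughout). Gbx2 (chr1:89927956-89931179, minus strand) held 20.9% and 17.2% of the summed level of the 55 genes per kilobase of exon in the GFP-positive libraries, against 1.5% and 3.46% in the GFP-negative ones. D130058E05Rik, a transcript annotated on the opposite strand over Gbx2, had 247 and 425 counts in GFP-negative and 2093 and 1451 counts in GFP-positive libraries, at most 21.4% of the Gbx2 counts of a library. Whether reads were counted by strand is not stated, so reads of overlapping genes, here and below, cannot be told apart.

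Apart from Gbx2, 1 of 47 tested homeobox genes passed the test over all genes (edgeR's quasi-likelihood test, Benjamini-Hochberg adjusted p under 0.05): Zfhx3, which was higher in GFP-positive cells. Over all 17940 genes tested, 1.1% were called, 0.234% higher and 0.87% lower, so 1 of 47 is little above that background. None of the 47 was called lower; by unadjusted p under 0.05 there were 15 of 47, against 12.6% of all genes, and DESeq2 called 3 higher (Zfhx3, Zfhx4 and Six6) and 2 lower (Six3 and Tshz2). Of the 47, 31 had a positive and 16 a negative log2 fold change, with a median of 0.60, against 52.4% positive and a median of 0.04 over all genes. The CPM ranges of the fractions did not overlap in 30 of 47, 20 higher and 10 lower, where 43.8% of all genes had separate ranges, 22.5% higher and 21.3% lower. The smallest absolute log2 fold change among the genes edgeR called was 1.72.

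**Figure D1:**
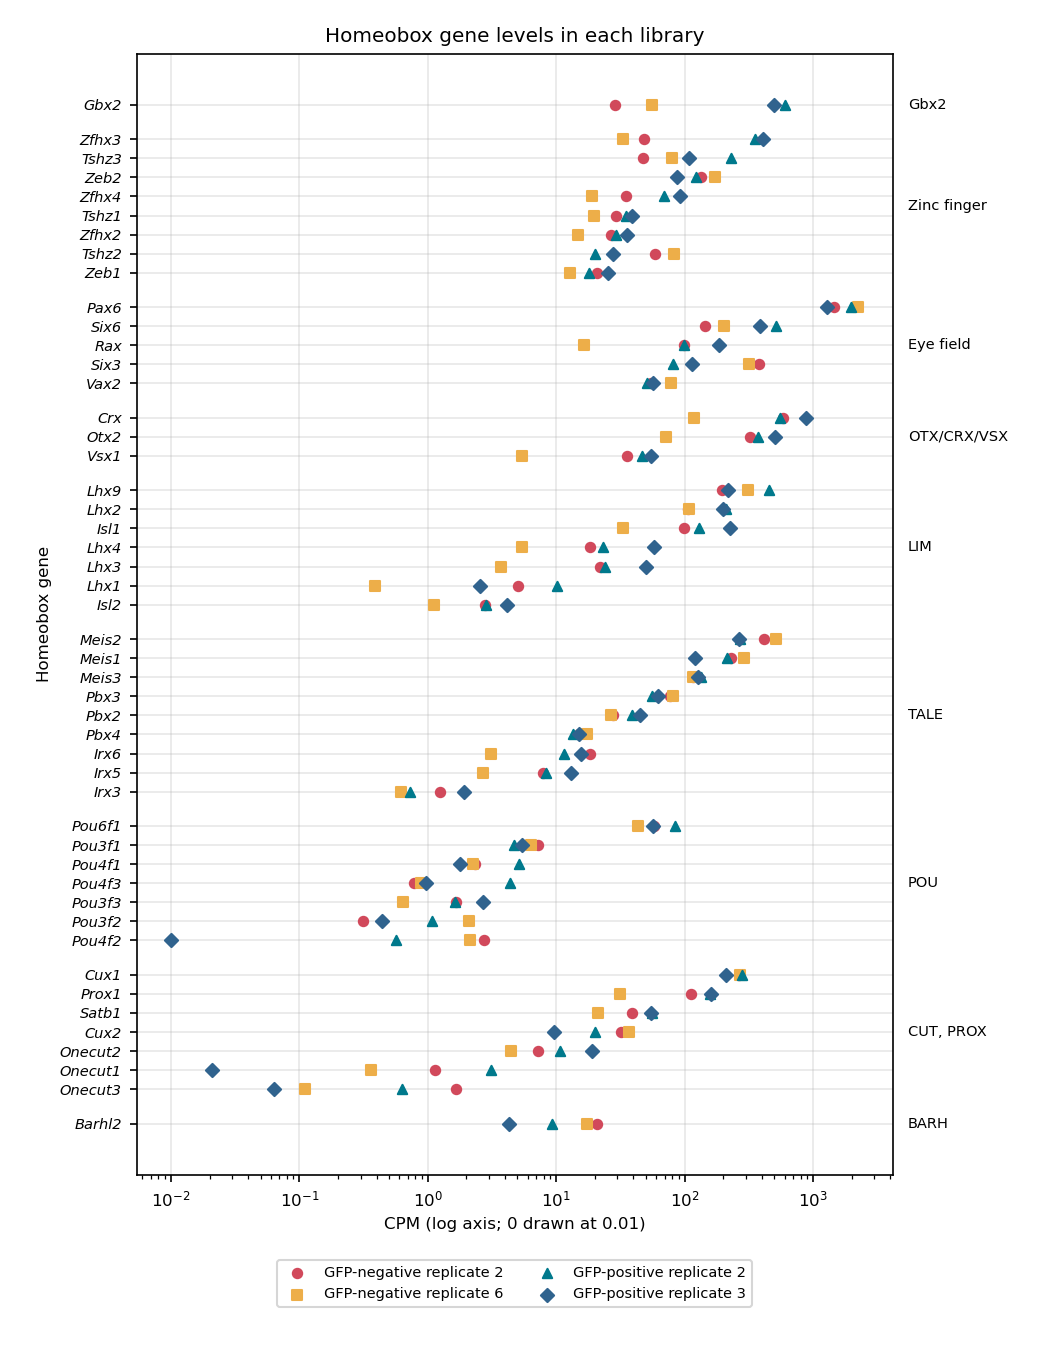
Level of each of the 48 tested homeobox genes in CPM (log axis) in the 4 libraries, grouped by class; each point is 1 library. Gbx2 and Zfhx3 are higher in both GFP-positive libraries, Six3 and Tshz2 lower, and GFP-negative replicate 6 is the lowest library for Crx, Otx2, Vsx1, Rax and Isl1.

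**Figure D2:**
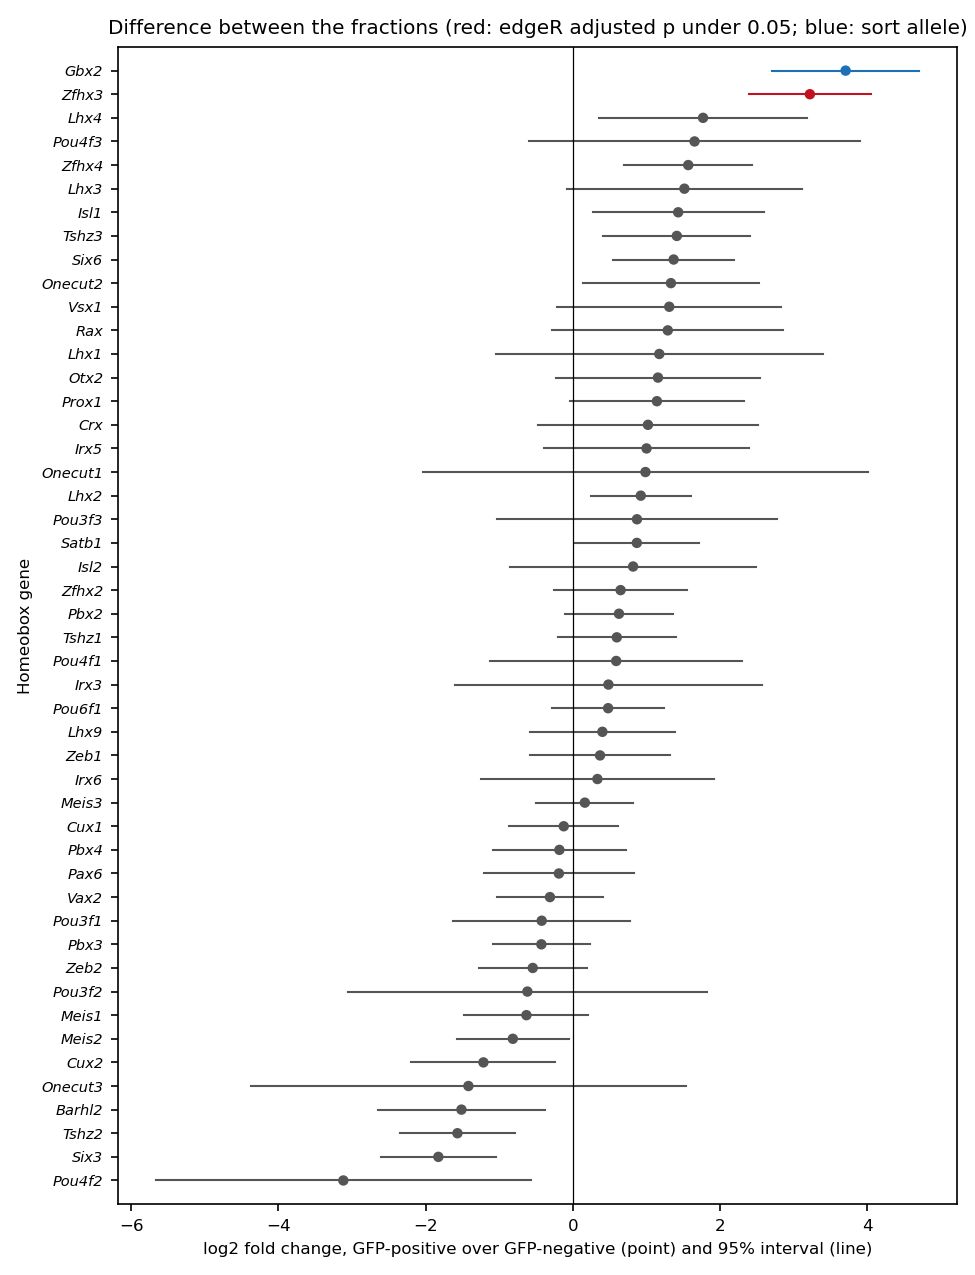
Log2 fold change of GFP-positive over GFP-negative cells for the 48 tested homeobox genes, with 95% intervals from the edgeR standard errors. Zfhx3 (3.22) passed the threshold, Six3 (-1.83) lay just outside it, and Gbx2 (3.71) is the sort allele.

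The zinc finger homeobox genes held the called gene. Zfhx3 (ENSMUSG00000038872, chr8:107942644-108961630, plus strand), a very large factor with several homeodomains and many zinc fingers, stood at 48.3 and 32.9 CPM in the GFP-negative and 352 and 406 CPM in the GFP-positive libraries. The fractions were far apart and the libraries of each lay close together. Its log2 fold change was 3.22 ± 0.36 (95% interval 2.39 to 4.05), 9.33-fold, with an edgeR adjusted p of 0.0107. It passed in 11 of 13 alternative analyses. The exceptions left out GFP-negative replicate 6 (log2 fold change 2.97, edgeR adjusted p = 0.105) or GFP-positive replicate 3 (3.11, edgeR adjusted p = 0.0603). Between the replicate 2 libraries, whose rod marker sums lie close at 9831 and 11225 CPM, the log2 ratio of Zfhx3 was 2.87. This pair of libraries was chosen after the values were seen. Gm39244, a noncoding transcript annotated on the opposite strand within Zfhx3, was also called, at a log2 fold change of 2.71 (edgeR adjusted p = 0.0283), with 138 to 207 counts in GFP-negative and 1272 to 1418 counts in GFP-positive libraries, at most 11.7% of the Zfhx3 counts.

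The relatives of Zfhx3 differed less. From here on, 4 levels are given in the order GFP-negative 2, GFP-negative 6, GFP-positive 2, GFP-positive 3, and brackets hold the log2 fold change with its standard error, its 95% interval and the edgeR adjusted p. Zfhx4 had levels of 35.3, 19.1, 68.9 and 92.8 CPM (1.57 ± 0.38, 0.70 to 2.44, edgeR adjusted p = 0.125), with separate ranges, and passed with DESeq2 (DESeq2 adjusted p = 0.0111). Zfhx2 had levels of 26.5, 14.9, 29.2 and 35.9 CPM (0.65 ± 0.39, -0.25 to 1.55, edgeR adjusted p = 0.554), separate by a small margin. Per kilobase of exon, the ratio of Zfhx3 to Zfhx4 was 1.03 and 1.29 in the GFP-negative and 3.83 and 3.28 in the GFP-positive libraries. The ratio was thus higher in both GFP-positive libraries than in either GFP-negative one.

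The teashirt genes, zinc finger factors with an atypical homeodomain that act mainly as repressors, differed in both directions. Tshz2 (chr2:169633013-170071816, plus strand) stood at 59.2, 82.3, 20.1 and 27.6 CPM. Both GFP-positive libraries lay below both GFP-negative ones, with a difference short of edgeR's threshold (-1.57 ± 0.34, -2.35 to -0.78, edgeR adjusted p = 0.086) that passed with DESeq2 (DESeq2 adjusted p = 0.00327). Tshz3 (chr7:36698118-36773553, plus strand) stood at 47.2, 80.5, 232 and 108 CPM, higher in both GFP-positive libraries but with a more than 2-fold gap between them (1.41 ± 0.44, 0.42 to 2.41, edgeR adjusted p = 0.235). The ratio of Tshz3 to Tshz2 per kilobase was 1.14 and 1.39 in GFP-negative and 16.4 and 5.61 in GFP-positive libraries, so the ranges of the ratio were separate. Tshz1 stood at 29.3, 19.8, 35.3 and 39.2 CPM (0.60 ± 0.35, -0.20 to 1.40, edgeR adjusted p = 0.539). Of the Zeb repressors, Zeb2 stood at 134, 171, 122 and 87.6 CPM (-0.54 ± 0.32, -1.28 to 0.19, edgeR adjusted p = 0.542). Zeb1 ranged over 12.7 to 25.4 CPM with overlapping fractions, and Gm10125, on its opposite strand, reached 72.4% of its counts.

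Among the eye-field genes, Pax6 was high in every library and Six3 and Six6 lay in opposite directions, neither past the threshold. Pax6 (ENSMUSG00000027168, chr2:105668900-105697364, plus strand) stood at 1469, 2245, 1972 and 1286 CPM, the largest CPM of the 55 genes in each library. The ranges of the fractions overlapped, with an interval (-0.19 ± 0.45, -1.21 to 0.83, edgeR adjusted p = 0.908) that allows a change of about 2-fold either way; the sign turned when GFP-negative replicate 6 (0.15) or GFP-positive replicate 3 (0.08) was left out. Pax6os1, on its opposite strand, had at most 1.07% of its counts.

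Six3 (ENSMUSG00000038805, chr17:85613608-85629302, plus strand), a repressor needed to form the eye field and kept in amacrine cells, stood at 382 and 316 CPM in the GFP-negative and 81.8 and 115 CPM in the GFP-positive libraries. The groups were well apart. The log2 fold change was -1.83 ± 0.34 (95% interval -2.61 to -1.05), 3.55-fold, and its edgeR adjusted p of 0.0502 fell just short of the threshold; it passed in 5 of 13 alternatives (edgeR adjusted p from 0.0324 to 0.0499 in 4 of them and a DESeq2 adjusted p of 1.93e-05). Between the replicate 2 libraries the log2 ratio was -2.22. The amacrine marker sum given above was also lower in the GFP-positive libraries, and its part in this difference was not tested. Six3os1, transcribed from the opposite strand beside and over Six3, stood at 7830, 5248, 2319 and 3031 counts, up to 62.0% of the Six3 counts (log2 fold change -1.54, edgeR adjusted p = 0.0705), and reads in the overlap cannot be assigned to 1 of them.

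Six6 (chr12:72939892-72944899, plus strand), the paralog of Six3, stood at 144, 204, 515 and 385 CPM. It was higher in both GFP-positive libraries (1.37 ± 0.36, 0.55 to 2.19, edgeR adjusted p = 0.155), and passed with DESeq2 (DESeq2 adjusted p = 0.011). Per kilobase of exon, Six6 over Six3 was 0.51 and 0.88 in the GFP-negative and 8.55 and 4.57 in the GFP-positive libraries. Six3 was thus the more abundant of the pair in both GFP-negative libraries and Six6 in both GFP-positive ones. An exact permutation test of 2 against 2 libraries cannot go below p = 0.333, two-sided, so the ratios are given as values. Part of a protein-coding neighbour, 4930447C04Rik, overlaps Six6 on the opposite strand, with up to 24.0% of its counts. Vax2, a factor of the ventral retina, stood at 55.2, 78.6, 51.1 and 56.7 CPM, with overlapping fractions (-0.31 ± 0.32, -1.03 to 0.41, edgeR adjusted p = 0.745), and Vax2os on its opposite strand reached 30.7% of its counts.

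**Figure D3:**
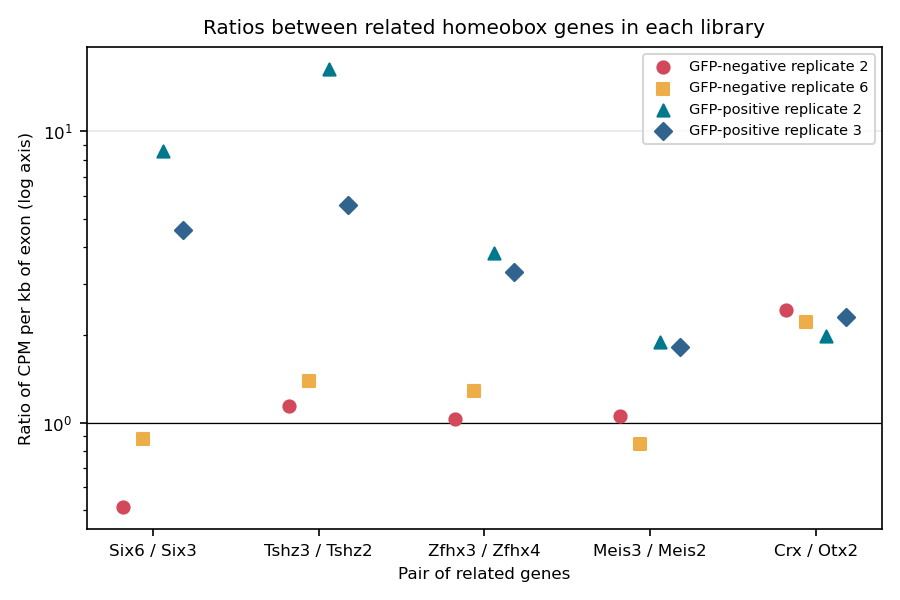
Ratio between related homeobox genes in each library, from CPM per kilobase of exon (log axis); each point is 1 library. Six6 over Six3 runs from 0.51 and 0.88 to 8.55 and 4.57 and Tshz3 over Tshz2 from 1.14 and 1.39 to 16.4 and 5.61, while Crx over Otx2 lies between 1.99 and 2.43 in all 4 libraries.

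Of the photoreceptor and bipolar factors, Crx and Otx2 were abundant. Crx, Otx2 and Vsx1 were lowest in the library lowest in rod markers and highest in the library highest in them. Crx (ENSMUSG00000041578, chr7:15865947-15879968, minus strand), the factor that turns on photoreceptor genes, stood at 588, 118, 554 and 879 CPM. Per kilobase it was the highest of the 55 genes in GFP-negative replicate 2 and GFP-positive replicate 3, whereas Pax6 led in GFP-negative replicate 6 and Gbx2 in GFP-positive replicate 2. GFP-negative replicate 6 was lowest and GFP-positive replicate 3 highest, the fractions overlapped, and the interval was wide (1.02 ± 0.65, -0.47 to 2.51, edgeR adjusted p = 0.578). Otx2, which acts before Crx and is kept in photoreceptors and bipolar cells, stood at 323, 71.1, 373 and 508 CPM (1.16 ± 0.61, -0.23 to 2.54, edgeR adjusted p = 0.489). Vsx1, a factor of cone bipolar cells, stood at 35.3, 5.45, 46.9 and 54.9 CPM (1.31 ± 0.67, -0.21 to 2.83, edgeR adjusted p = 0.474).

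Set against the rod markers, these genes varied far less. Per 1000 CPM of summed rod markers, Crx amounted to 59.8, 48.7, 49.4 and 45.6 CPM and Otx2 to 32.9, 29.4, 33.2 and 26.3 CPM, whereas their own levels ranged over 7-fold. Vsx1 amounted to 3.59, 2.25, 4.18 and 2.84 CPM on the same scale, a wider relative spread. A small spread on this scale was not limited to Crx and Otx2. Isl1, described below, amounted to 10.0035, 13.6, 11.6 and 11.6 CPM, and Prox1 to 11.5, 12.96, 14.1 and 8.29 CPM. Lhx2, Six6 and Zfhx3 spread far more widely, with Lhx2 at 10.7, 44.8, 18.6 and 10.2 CPM. The scale thus does not single out factors of photoreceptors, and the source of the RNA was not tested. Between the replicate 2 libraries the log2 ratio of GFP-positive over GFP-negative was -0.09 for Crx, 0.21 for Otx2 and 0.41 for Vsx1. Without GFP-negative replicate 2, the fit called Otx2 (2.57, edgeR adjusted p = 0.0414) and Vsx1 (3.17, edgeR adjusted p = 0.031) higher; that fit sets GFP-negative replicate 6, the library lowest in rod markers, against both GFP-positive ones. The 9 cone markers summed to 444, 113, 386 and 744 CPM and the 11 bipolar markers to 737, 412, 859 and 1226 CPM. Of the cone markers 8 and of the bipolar markers 9 had a positive log2 fold change; Cngb3 (58.8, 71.1, 20.8 and 39.8 CPM) of the first list, and Prkca and Grik1 of the second, had a negative one. In edgeR's test 0 of the cone and 0 of the bipolar markers were called, with 4 of each list at an unadjusted p under 0.05, Cngb3 among them.

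Rax, Isl1, Lhx3, Lhx4 and Prox1 showed the same arrangement of libraries. Rax, an eye-field gene later used by progenitors, Müller glia and photoreceptors, stood at 99.5, 16.4, 99.4 and 185 CPM (1.29 ± 0.69, -0.28 to 2.86, edgeR adjusted p = 0.496). Isl1, a LIM factor of ganglion cells, ON bipolar cells and starburst amacrine cells, stood at 98.3, 33.0, 131 and 224 CPM (1.43 ± 0.51, 0.27 to 2.60, edgeR adjusted p = 0.293). Among LIM factors of bipolar cells, Lhx4 had levels of 18.3, 5.39, 23.3 and 58.0 CPM (1.77 ± 0.62, 0.36 to 3.18, edgeR adjusted p = 0.285) and Lhx3 of 22.0, 3.71, 24.1 and 50.01 CPM (edgeR adjusted p = 0.42). Prox1, a prospero-type factor of horizontal, bipolar and AII amacrine cells, had levels of 113, 31.4, 159 and 160.0 CPM (1.14 ± 0.52, -0.04 to 2.32, edgeR adjusted p = 0.412). In these 5 genes GFP-negative replicate 6 was lowest and, over the replicate 2 pair, the log2 ratio was between -0.002 (Rax) and 0.49 (Prox1). Without GFP-negative replicate 2, Rax (3.05, edgeR adjusted p = 0.0421) and Prox1 (2.28, edgeR adjusted p = 0.0446) were called. Of the 48 tested homeobox genes, 14 (29.2%) had their 4 libraries in exactly the order of the rod marker sums, against 10.4% of all genes tested. That order places both GFP-positive libraries above both GFP-negative ones, so only genes with separate, higher ranges can match it. Such ranges were found in 21 of the 48, against 22.5% of all genes. The order thus cannot tell a link to rod RNA from a difference between the fractions. The 14 were Irx5, Isl1, Isl2, Lhx3, Lhx4, Onecut2, Otx2, Pbx2, Prox1, Tshz1, Vsx1, Zfhx2, Zfhx3 and Zfhx4. Among them, the log2 ratio between the replicate 2 libraries was 2.87 for Zfhx3 and 0.97 for Zfhx4. How much of each level came from other cells was not tested.

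**Figure D4:**
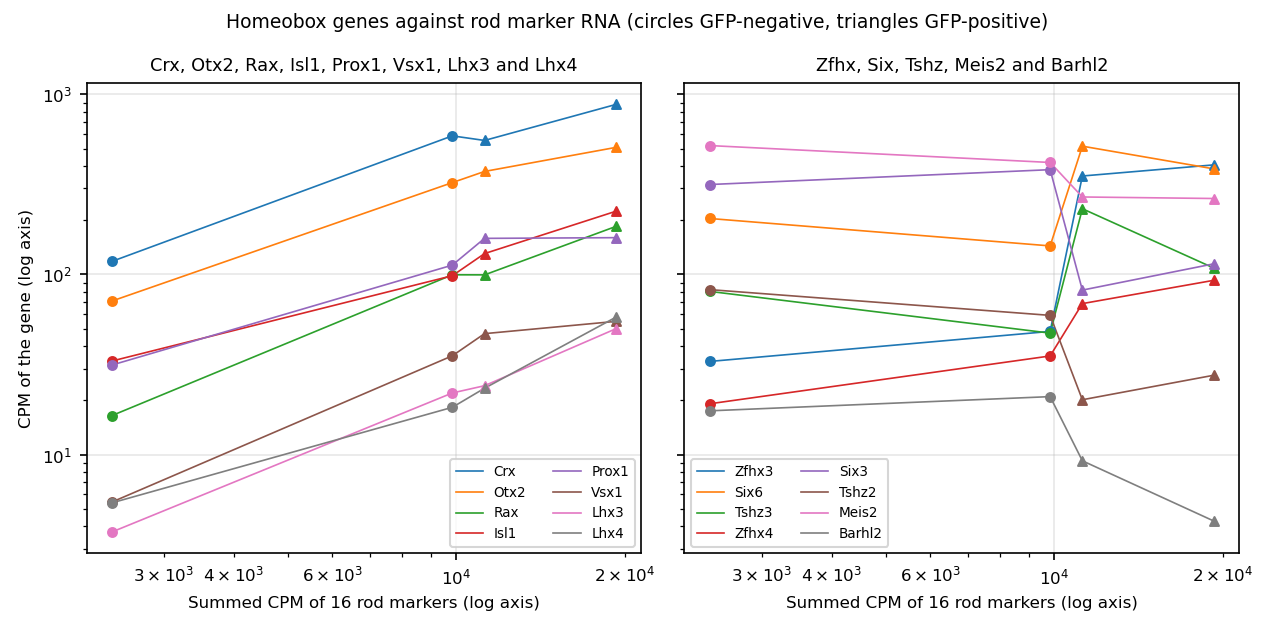
Level of 16 homeobox genes in CPM against the summed CPM of 16 rod markers (both log axes); circles are GFP-negative and triangles GFP-positive libraries, and lines join the 4 libraries of a gene. The genes at left climb with the rod sum across both fractions, with Crx and Rax about level between the 2 middle libraries. Those at right step between these libraries, which have rod sums of 9831 and 11225 CPM. The genes of each panel were chosen with the values known. The step is a matter of degree, with a log2 ratio of 0.49 for Prox1 at left and -0.64 for Meis2 at right.

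The remaining LIM genes were led by Lhx9 and Lhx2. Lhx9, a factor known in subsets of amacrine cells, stood at 196, 310, 452 and 216 CPM, with overlapping fractions (0.40 ± 0.43, -0.59 to 1.39, edgeR adjusted p = 0.764). GFP-positive replicate 2 was its highest library, and without it the log2 fold change was -0.25. Lhx2, an eye-field factor of progenitors and Müller glia, stood at 106, 109, 209 and 198 CPM. The libraries of each fraction agreed closely and the fractions did not overlap, yet the difference did not pass (0.92 ± 0.30, 0.25 to 1.60, edgeR adjusted p = 0.253). The log2 ratio of the replicate 2 pair was 0.98. The 11 Müller glia markers summed to 1828, 2206, 901 and 1119 CPM and the 8 progenitor markers to 74.3, 36.0, 82.0 and 84.0 CPM. Of the Müller markers, 6 had a positive and 5 a negative log2 fold change; Dkk3, at 1008, 1577, 244 and 131 CPM, held much of the sum and was the 1 called, lower. The part of glial RNA in the Lhx2 levels was not tested. Lhx1, a horizontal cell factor, ranged widely within each fraction, at 5.07, 0.391, 10.2 and 2.54 CPM (1.18 ± 0.98, -1.05 to 3.40, edgeR adjusted p = 0.674), and Isl2, a factor of some ganglion cells, at 1.12 to 4.12 CPM. Lhx5 had 0 counts in all libraries, and Lhx6 and Lmx1b had 1 count each, in GFP-negative replicate 6. All 7 tested LIM genes had a positive log2 fold change, against 52.4% of all genes. Of the 7, edgeR called 0, against 1.1% of all genes, and 3 had an unadjusted p under 0.05, against 12.6%. Isl1, Isl2, Lhx3 and Lhx4 were among the genes in the order of the rod marker sums.

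The TALE class holds homeodomain factors with extra residues between helices that act as partners of other homeodomain proteins. In edgeR's test 0 of its 9 tested genes were called. Separate ranges were found in 6 (66.7%), 3 higher and 3 lower, against 43.8% of all genes. Meis2, a factor of GABAergic amacrine cells, stood at 418, 519, 269 and 264 CPM, lower in both GFP-positive libraries (-0.81 ± 0.33, -1.58 to -0.05, edgeR adjusted p = 0.361). Meis1 stood at 228, 289, 213 and 121 CPM (-0.63 ± 0.37, -1.47 to 0.21, edgeR adjusted p = 0.538). Meis3 was nearly level, at 117, 116, 134 and 126 CPM (0.16 ± 0.29, -0.50 to 0.82, edgeR adjusted p = 0.868), and its ratio to Meis2 per kilobase was 1.06 and 0.85 in GFP-negative and 1.89 and 1.82 in GFP-positive libraries. Of the Pbx cofactors, Pbx3 stood at 77.5, 80.7, 55.4 and 62.2 CPM and Pbx2 at 27.5, 26.7, 38.8 and 44.9 CPM, separate ranges in opposite directions (edgeR adjusted p = 0.596 and 0.474), and Pbx4 at 13.4 to 17.3 CPM. The Iroquois genes Irx5 and Irx6, known from bipolar cells, were again lowest in GFP-negative replicate 6, with Irx5 at 7.91, 2.71, 8.38 and 13.1 CPM (1.00 ± 0.61, -0.39 to 2.39, edgeR adjusted p = 0.555) and Irx6 at 18.2, 3.13, 11.5 and 15.6 CPM (edgeR adjusted p = 0.891). Irx3 reached at most 1.91 CPM, and Irx2 had 0, 6, 13 and 0 counts.

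POU factors of ganglion cells were near the lower end of the range. Pou4f2, which sets ganglion cell fate, stood at 2.73, 2.15, 0.569 and 0 CPM, from 114, 77, 26 and 0 counts. Its log2 fold change (-3.12 ± 1.13, -5.67 to -0.57, edgeR adjusted p = 0.294) was the lowest of the 48, and the 0 in GFP-positive replicate 3 makes it depend on the prior count. The 7 ganglion cell markers summed to 608, 873, 340 and 218 CPM, mostly Gap43 and Nefl; 6 had a negative log2 fold change, and Rbpms a positive one, at 10.1, 7.35, 28.9 and 26.0 CPM. The relatives of Pou4f2 did not share this: Pou4f1 stood at 2.32, 2.23, 5.10 and 1.79 CPM (0.59 ± 0.75, -1.13 to 2.31, edgeR adjusted p = 0.809) and Pou4f3, a factor also known from hair cells, at 0.789, 0.894, 4.35 and 0.967 CPM (1.65 ± 0.99, -0.59 to 3.90, edgeR adjusted p = 0.544), both highest in GFP-positive replicate 2. Pou6f1 had the highest level per kilobase of the class, with 57.3, 43.6, 84.4 and 56.5 CPM (0.48 ± 0.33, -0.28 to 1.24, edgeR adjusted p = 0.604). The class III genes are known from neural precursors. Pou3f1 had levels of 7.17, 6.42, 4.68 and 5.47 CPM (-0.42 ± 0.53, -1.62 to 0.78, edgeR adjusted p = 0.805), Pou3f2 of 0.311, 2.09, 1.07 and 0.442 CPM (-0.62 ± 1.07, -3.06 to 1.82, edgeR adjusted p = 0.864) and Pou3f3 of 1.67, 0.642, 1.64 and 2.69 CPM (0.87 ± 0.83, -1.03 to 2.77, edgeR adjusted p = 0.725).

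Among genes with CUT domains, Cux1 was level and Cux2 lower in GFP-positive libraries. Cux1 stood at 263, 271, 281 and 210 CPM (-0.12 ± 0.33, -0.87 to 0.62, edgeR adjusted p = 0.921) and Cux2 at 32.2, 37.1, 20.2 and 9.67 CPM (-1.21 ± 0.43, -2.19 to -0.24, edgeR adjusted p = 0.29). Satb1, a chromatin organiser, stood at 39.1, 21.03, 55.4 and 54.7 CPM (0.87 ± 0.37, 0.03 to 1.71, edgeR adjusted p = 0.381). The Onecut genes act in horizontal and ganglion cells. Onecut2 stood at 7.24, 4.47, 10.7 and 19.0 CPM (1.33 ± 0.52, 0.14 to 2.53, edgeR adjusted p = 0.341). Onecut1 had 48, 13, 142 and 1 counts (0.99 ± 1.33, -2.03 to 4.01, edgeR adjusted p = 0.819) and Onecut3 had 69, 4, 29 and 3 (-1.42 ± 1.30, -4.37 to 1.54, edgeR adjusted p = 0.709), so libraries of the same fraction differed more than the fractions did. The horizontal cell markers (4 found) summed to 118, 82.6, 135 and 136 CPM. Lhx1 and Onecut1 had their highest counts in GFP-positive replicate 2, which was also the only library with Dlx1 and Dlx2 counts (11 and 18).

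Barhl2 (chr5:106452523-106458166, minus strand), a BarH-type factor of developing amacrine and ganglion cells, stood at 20.96, 17.5, 9.23 and 4.27 CPM. Both GFP-positive libraries lay below both GFP-negative ones (-1.51 ± 0.50, -2.65 to -0.38, edgeR adjusted p = 0.26), in the direction of the amacrine marker sum. Dlx1 and Dlx2, neighbours on chromosome 2 known from ganglion cell and forebrain interneuron development, were at 0 in 3 libraries. Dlx1as, opposite to Dlx1, had 44, 4, 29 and 23 counts, more than Dlx1 itself. Otx1 had 0 counts in all 4 libraries.

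The rest of the homeobox family was read from a list of 161 genes found in the table, of which 84 had no count in any library. Of the 41 tested, 1 passed, where 1.1% of all genes were called, 0.87% lower. That gene was Rhox5, an X-linked member of the reproductive homeobox cluster, at 37.7, 28.8, 7.52 and 7.65 CPM (log2 fold change -2.13 ± 0.39, edgeR adjusted p = 0.0462). Both GFP-positive libraries lay well below both GFP-negative ones; the call was kept in 5 of 13 alternatives. The list's median log2 fold change was 0.26, with 23 of 41 (56.1%) showing separate ranges, against the 43.8% of all genes.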

How the data were processed

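Reads per gene, as raw counts for 4 libraries, were deposited by the authors. Per the labels' protocols, cDNA was made with a Takara SMART-Seq kit. The submitters' processing notes list Trimmomatic, STAR 2.7.3a, MultiQC, limma and GRCm38 without saying what each was used for. No source used here gives the counting tool or its strand setting. A further deposited table, headed cpm, holds signal values that are the counts times a constant per library: all (100%) were whole reads within 0.01 over 18305 rows, and 100% of shared values equalled the counts. Run on those reads, the test called 200 genes.

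The comparison used edgeR 4.0.16 (R 4.3.3) with filterByExpr (minimum count 10, minimum total 15), TMM scaling, glmQLFit (robust, non-legacy) and glmQLFTest over 17940 genes, GFP-positive minus GFP-negative, with 2 residual degrees of freedom. A gene was called at a Benjamini-Hochberg adjusted p under 0.05. The standard error was obtained by dividing the size of the log2 fold change by the root of F, and 95% intervals used the total degrees of freedom. Levels were compared between genes as CPM per kilobase of exon union in GENCODE M21. The edgeR step was also run on simulated counts, drawn with a common dispersion for all genes and no difference in rod RNA between libraries. These settings differ from the data, and the outcome is not used as support here. Alternatives were DESeq2 1.42.0, limma-voom (limma 3.58.1), other scalings and filters, left-out genes and left-out libraries.

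Named in full were any called homeobox gene, a list of homeobox genes set with the design, and the most abundant per length and most different gene of each class; other genes are given by levels or ranges. Genes, lists and tests were chosen with earlier results of these data known. Beyond the marker lists in the text, 3 astrocyte genes summed to 2.93 to 19.3 CPM, 11 endothelial and pericyte genes to 69.0 to 173 CPM, 8 microglia genes to 36.9 to 116 CPM and 5 erythroid genes to 0.112 to 4.88 CPM. Because no molecular identifiers were read, floors reflect counting error alone and reads are not separate molecules.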

Additional observations from a re-analysis of the deposited data

How the results depend on the processing

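No paired analysis was possible because the fractions share only replicate number 2, which leaves no residual degrees of freedom for a block. The 13 alternatives kept the direction and the side of the threshold in 462 of 487 values of 38 homeobox genes. Of these genes only Gbx2 and Zfhx3 were called in the main fit. For the others, keeping the side means staying uncalled, so the count is no measure of how stable the calls are. Over all genes, 198 were called, against 859 with DESeq2, 106 with no filter, 92 with limma-voom, 48 with the legacy quasi-likelihood fit (added after seeing the data) and 1 to 336 when a library was left out: 1 with GFP-negative replicate 6 left out, 5 with GFP-positive replicate 3 left out, 108 with GFP-positive replicate 2 left out and 336 with GFP-negative replicate 2 left out. Homeobox genes other than Gbx2 called higher numbered 1, against 3 with DESeq2 and 0 to 5 when a library was left out. Those called lower numbered 0, against 2 with DESeq2 and 1 (Six3) with RLE scaling, a stricter filter (over 5 CPM in 2 libraries), the removal of rod, mitochondrial and hemoglobin genes, or the recovered reads (also added after seeing the data). Other homeobox genes called numbered 1, against 2 with RLE scaling, the stricter filter or DESeq2, 0 with no filter, limma-voom or the legacy fit, and 0 to 1 when a library was left out. The cause of these moves was not tested. Signs turned among genes past no threshold: leaving out a library gave log2 fold changes of -0.55 to 0.15 for Pax6, -0.25 to 0.83 for Lhx9, -0.15 to 3.95 for Lhx1, -0.37 to 1.16 for Pou4f1, -1.53 to 1.27 for Pou3f2, -5.03 to 2.02 for Onecut1 (-1.18 with limma-voom) and -3.81 to 1.54 for Onecut3. Leaving out a library also turned the sign for Cux1 (-0.37 to 0.07), Irx3 (-0.39 to 1.05) and Irx6 (-0.42 to 2.06). Library-size scaling moved the median of all genes by 0.17 on the log2 scale. DESeq2 called Six6 at 1.34 and Zfhx4 at 1.56 on that scale, which edgeR did not call.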
